A study of Mus musculus with 15 samples.

Results

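The genes described here encode matrix proteases and the proteins that hold them in check: the matrix metalloproteinases Mmp2, Mmp3, Mmp7, Mmp9 and Mmp14, the tissue inhibitors of metalloproteinases Timp1, Timp2 and Timp3, and the plasminogen activators Plau and Plat. They are 10 of the 54532 genes in the deposited kidney table, chosen by name and found through their Ensembl identifiers on mouse build GRCm38. All 10 had an FPKM (fragments per kilobase of transcript, divided by a library size) above 0 in at least 5 libraries of each comparison and could be tested.

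Matrix metalloproteinases are zinc enzymes that cut collagens, laminins and other parts of the extracellular matrix, and most are made as inactive precursors. Mmp14 sits in the cell membrane and, with Timp2 as an adaptor, activates the gelatinase Mmp2, so that Timp2 takes part in both activation and inhibition. The TIMP proteins block the active enzymes, while Plau (urokinase) and Plat (tissue plasminogen activator) turn plasminogen into plasmin, which degrades fibrin and can activate metalloproteinase precursors. In the kidney these systems are studied for their part in matrix turnover during scarring.

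RNA was sequenced from kidneys of male C57BL/6 mice that were 8 weeks old at purchase. The C group (n = 5) ate a normal diet, the M group (n = 5) ate chow with 0.25% adenine for 4 weeks as a model of chronic kidney disease (CKD), and the AA group (n = 5) ate the same chow and received asiatic acid, a triterpenoid from Centella asiatica, at 30 mg/kg by daily gavage. All mice were on standard chow from week 5 to week 8, C and M mice received the vehicle by gavage, and AA dosing went on to the end. No group received asiatic acid without adenine, and the labels do not say whether mice shared a cage or a day of extraction.

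Libraries held between 13647036 and 28884450 reads on genes, as recovered from the FPKM values, and mitochondrial genes took 53.0% to 62.5% of them in C, 64.0% to 86.8% in M and 69.2% to 87.2% in AA. Outside the mitochondrial genome 6951352 to 13576620 reads remained in C, 2077644 to 7142900 in M and 2225755 to 4271183 in AA. M mice 1 to 3 stood apart, with 10068 to 12222 genes above 0 against 18695 to 25460 in the other 12 libraries. The tissue label was checked against 10 markers of the proximal tubule, the main cell type of the kidney cortex: their summed FPKM was 4380 to 18340 in C, 262 to 976 in M and 472 to 1013 in AA. In bulk tissue, fewer cells of a type and less RNA per cell cannot be told apart.

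Promoter sequence was at hand for 6 of the 10 genes, from the RefSeq table for GRCm38.p6, as the 250 bases before the annotated start, and 4 of them are shown as examples of 2 sets of letter matches. Capitals mark 3 motifs searched on both strands: the AP-1 element TGACTCA, the GC box GGGCGG and the TATA box TATAAA, and a match on the other strand stands as its reverse complement. Mmp14 (chr14:54431348-54431597, plus strand) and Timp2 (chr11:118355412-118355661, minus strand) hold GC boxes, and Mmp3 (chr9:7445572-7445821, plus strand) and Mmp7 (chr9:7691840-7692089, plus strand, the first of its 2 RefSeq starts) hold the AP-1 element and the TATA box. The Timp2 window lies before a RefSeq start but inside the gene interval given below (chr11:118301069-118355740).
Mmp14: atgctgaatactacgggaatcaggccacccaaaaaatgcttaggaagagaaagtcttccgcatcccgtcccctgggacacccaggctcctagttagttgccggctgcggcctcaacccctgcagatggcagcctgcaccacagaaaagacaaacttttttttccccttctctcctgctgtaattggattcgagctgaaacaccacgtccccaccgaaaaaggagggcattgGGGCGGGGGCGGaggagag
Timp2: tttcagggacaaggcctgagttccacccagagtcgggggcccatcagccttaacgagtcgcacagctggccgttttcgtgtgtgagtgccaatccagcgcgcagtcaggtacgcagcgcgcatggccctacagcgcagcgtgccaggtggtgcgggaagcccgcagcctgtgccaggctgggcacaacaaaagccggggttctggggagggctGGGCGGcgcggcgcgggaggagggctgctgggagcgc
Mmp3: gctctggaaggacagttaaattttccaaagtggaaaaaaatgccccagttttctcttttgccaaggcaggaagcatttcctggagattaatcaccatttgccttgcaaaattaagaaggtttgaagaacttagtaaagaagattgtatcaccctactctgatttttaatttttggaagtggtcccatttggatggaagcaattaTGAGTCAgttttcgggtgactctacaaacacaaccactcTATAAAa
Mmp7: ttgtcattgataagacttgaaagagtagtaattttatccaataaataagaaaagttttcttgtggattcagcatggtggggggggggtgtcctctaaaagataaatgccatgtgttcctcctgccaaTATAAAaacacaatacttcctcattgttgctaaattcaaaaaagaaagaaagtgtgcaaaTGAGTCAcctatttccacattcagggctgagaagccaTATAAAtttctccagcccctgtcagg
The AP-1 element began 46 bases before the start in Mmp3 and 63 bases before it in Mmp7, and 4.46% of the 32851 promoters in the table held it. A TATA box lay 7 bases before the start of Mmp3 and 123 and 26 bases before that of Mmp7, against 12.4% of all promoters with one. GC boxes began 19 and 13 bases before the start of Mmp14, where they touch, and 37 bases before that of Timp2, and single ones stood in the promoters of Timp1 and Timp3. The GC box was present in 32.7% of all promoters. These are matches of letters and do not show that a factor binds. Mmp2, Mmp9, Plau and Plat had no entry.

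Mmp14 (ENSMUSG00000000957, chr14:54431612-54445364, plus strand of build GRCm38), the membrane-bound activator of Mmp2, had the highest mean level of the 5 matrix metalloproteinases in every group. On the deposited FPKM scale it was higher in both adenine-fed groups than in C. Its FPKM was 3.69, 4.37, 3.10, 10.8 and 7.53 in C mice 1 to 5, 18.3, 13.6, 14.2, 29.9 and 37.3 in M mice 1 to 5, and 20.3, 22.0, 25.7, 24.3 and 25.7 in AA mice 1 to 5. Every M and every AA library lay above every C library, while M and AA overlapped, with M mice 4 and 5 above all AA mice and M mice 1 to 3 below all of them. It rested on 707 to 6948 recovered reads per library. The mean level was 5.90 ± 3.24 (SD, n = 5) in C, 22.7 ± 10.5 in M and 23.6 ± 2.39 in AA. On the log2(FPKM + 1) scale, Mmp14 differed from C by 1.79 (SE 0.39) in M and by 1.95 (SE 0.29) in AA (limma, adjusted p = 0.0418 and 0.000735), and the AA vs. M difference was 0.16, with a 95% interval of -0.57 to 0.89. The M vs. C call was lost in 8 of 10 fits that each left out a mouse. With every library scaled to the same FPKM sum (TPM, mitochondrial genes included), the differences from C were 0.91 in M and 0.97 in AA. Neither then passed, and the C libraries overlapped with both groups.

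**Figure D1:**
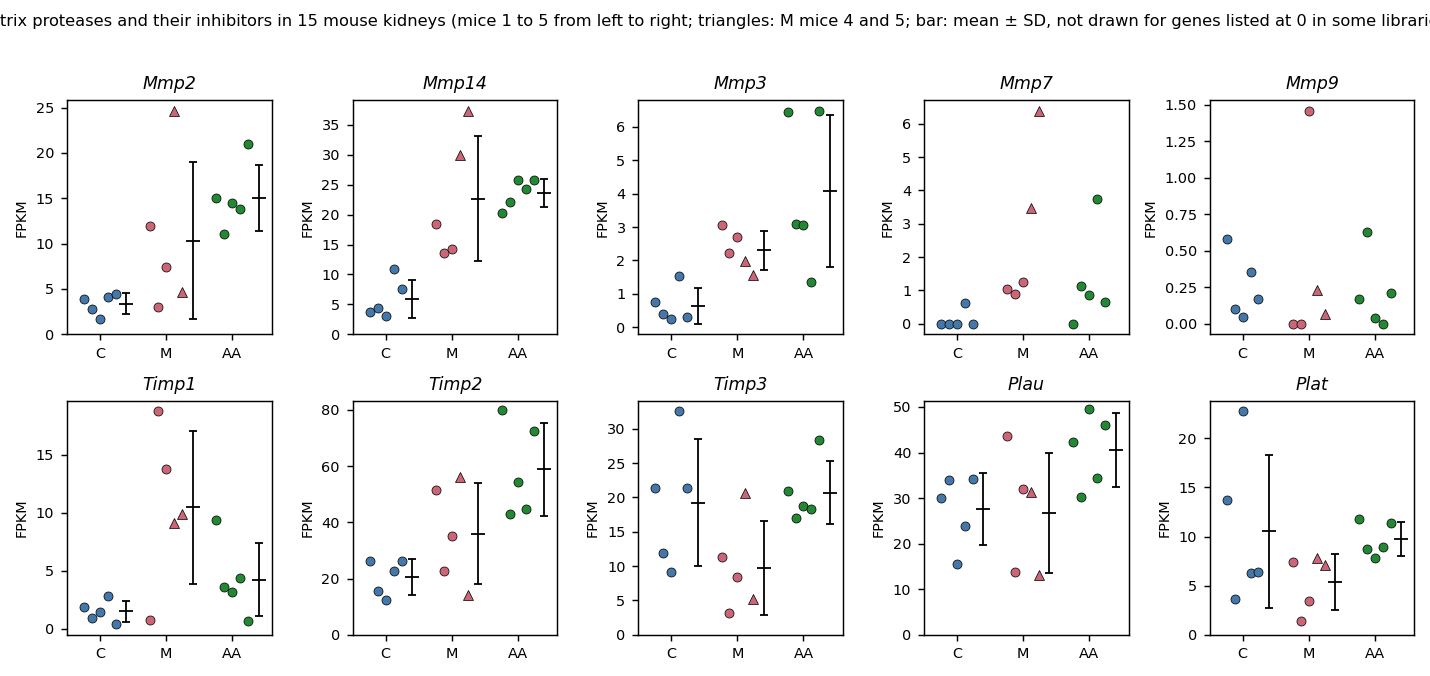
FPKM of the 10 genes (y axis, a scale of its own for each gene, linear) in the 5 libraries of the C, M and AA groups (x axis, mice 1 to 5 from left to right), with M mice 4 and 5 as triangles and the mean ± SD beside each group, left out for Mmp7 and Mmp9, which are listed at 0 in some libraries. Mmp14 is at 13.6 FPKM or more in all M and AA libraries and at most 10.8 in C, and Timp3 is lowest in M mouse 2, at 3.14.

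Mmp2 (ENSMUSG00000031740, chr8:92827291-92853420, plus strand), the gelatinase that cleaves denatured collagen and type IV collagen, was higher in AA than in C on the deposited FPKM scale. Its FPKM was 3.84, 2.83, 1.65, 4.16 and 4.49 in C mice 1 to 5, 11.9, 3.01, 7.43, 24.6 and 4.67 in M mice 1 to 5, and 15.1, 11.1, 14.4, 13.8 and 20.9 in AA mice 1 to 5. All AA libraries exceeded all C libraries, and the M libraries ran from within the range of C to above that of AA. Mmp2 was higher by 1.89 (SE 0.25) on the log2 scale in AA vs. C (limma, adjusted p = 0.000438). The difference from C to M was 1.10 (SE 0.46, adjusted p = 0.256) and that from M to AA 0.79 (adjusted p = 0.248), neither past the threshold. With TPM the AA vs. C difference was 0.98 and did not pass, and AA overlapped with C.

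Mmp3 (ENSMUSG00000043613, chr9:7445822-7455975, plus strand), or stromelysin, which cleaves proteoglycans and activates other metalloproteinases, was expressed at a low level. Its FPKM was 0.761, 0.387, 0.234, 1.54 and 0.299 in C mice 1 to 5, 3.06, 2.23, 2.70, 1.97 and 1.57 in M mice 1 to 5, and 6.44, 3.08, 3.07, 1.35 and 6.48 in AA mice 1 to 5. On the deposited FPKM scale, M and C did not overlap, though only just, since C mouse 4 nearly reached M mouse 5. AA mouse 4 fell below C mouse 4. The AA vs. C difference of 1.55 (SE 0.34) passed the test (limma, adjusted p = 0.00479) and that of M vs. C did not, at 1.04 (SE 0.29, adjusted p = 0.0950). AA exceeded M by 0.51, which also missed the threshold (limma, adjusted p = 0.348). These values rested on 18 to 188 recovered reads per library, and 14.6% of the gene's 31-base words also occur in other genes, so that its reads may be split.

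Mmp7 (ENSMUSG00000018623, chr9:7692090-7699585, plus strand), or matrilysin, an epithelial metalloproteinase, was listed at 0 in C mice 1, 2, 3 and 5 and at 0.636 FPKM in C mouse 4. M mice 1 to 5 had 1.05, 0.896, 1.24, 3.48 and 6.39 FPKM, and AA mice 1 to 5 had 0, 1.14, 0.874, 3.73 and 0.640. On the deposited FPKM scale, the M libraries all lay above the C libraries, and AA overlapped both groups. With only C mouse 4 above 0 in C, Mmp7 met the filter for testing against C through the M and AA libraries. Its differences from C are therefore not independent of that filter. The log2(FPKM + 1) difference of 1.49 (SE 0.38) in M vs. C missed the threshold (limma, adjusted p = 0.0788), as did 0.85 in AA vs. C (adjusted p = 0.0639) and -0.64 in AA vs. M (adjusted p = 0.372). M mice 1 to 3 had 10 to 18 reads of Mmp7 and M mice 4 and 5 had 109 to 213. An overlapping gene on the opposite strand, AV064505, covers 11.5% of its exon bases, and whether reads were counted by strand is not given in the sources used here.

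Mmp9 (ENSMUSG00000017737, chr2:164940780-164955850, plus strand), a gelatinase known as a product of neutrophils and macrophages, had the lowest mean level of the 10 genes in M and AA. It was listed at 0.581, 0.0984, 0.0425, 0.351 and 0.169 FPKM in C mice 1 to 5, at 0, 0, 1.46, 0.231 and 0.0634 in M mice 1 to 5, and at 0.166, 0.627, 0.0377, 0 and 0.211 in AA mice 1 to 5. The 3 groups overlapped throughout. No library had more than 70 reads of it, and the log2(FPKM + 1) differences were 0.03 in M vs. C (95% interval -0.47 to 0.54), -0.09 in AA vs. M and -0.05 in AA vs. C (limma, adjusted p = 0.947, 0.839 and 0.804). The sum of 6 neutrophil markers was also low, at a median of 2.08 FPKM in C, 7.03 in M and 2.43 in AA.

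Timp2 (ENSMUSG00000017466, chr11:118301069-118355740, minus strand) was the TIMP gene with the highest mean level in every group. On the deposited FPKM scale it was higher in AA than in C. Its FPKM was 26.1, 15.6, 12.2, 22.7 and 26.1 in C mice 1 to 5, 51.5, 22.8, 35.0, 56.2 and 14.2 in M mice 1 to 5, and 79.9, 43.1, 54.4, 44.7 and 72.6 in AA mice 1 to 5. Each AA library lay above each C library, whereas M spread from inside the C range to inside the AA range. The AA vs. C difference was 1.49 (SE 0.28) on the log2 scale (limma, adjusted p = 0.00237), and those of M vs. C (0.67, adjusted p = 0.425) and AA vs. M (0.82, adjusted p = 0.177) did not pass. With TPM the AA vs. C difference was 0.42 and did not pass, and AA overlapped with C.

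Timp3 (ENSMUSG00000020044, chr10:86300372-86349506, plus strand), which is bound to the matrix and also inhibits ADAM proteases, had its lowest mean in M. Its FPKM was 21.3, 11.8, 9.17, 32.6 and 21.3 in C mice 1 to 5, 11.4, 3.14, 8.40, 20.6 and 5.26 in M mice 1 to 5, and 21.0, 17.0, 18.8, 18.3 and 28.4 in AA mice 1 to 5. M mouse 4 lay among the C and AA libraries, and the other 4 M mice were below every AA mouse. The difference was -1.01 (SE 0.46) in M vs. C (limma, adjusted p = 0.296) and 1.22 (SE 0.41) in AA vs. M (adjusted p = 0.0556), just outside the threshold. With M mouse 4 left out, AA vs. M was 1.53 and passed (adjusted p = 0.0154). Between AA and C the difference was 0.21 (adjusted p = 0.628). Of the exon bases of Timp3, 21.3% lie opposite to exons of Syn3, and its reads and those of Syn3 cannot be told apart there without strand.

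Timp1 (ENSMUSG00000001131, chrX:20870166-20874735, plus strand), an inhibitor of most secreted metalloproteinases, is widely used as a marker of fibrosis. C mice 1 to 5 had 1.89, 0.897, 1.49, 2.79 and 0.404 FPKM, M mice 1 to 5 had 0.776, 18.8, 13.8, 9.14 and 9.92, and AA mice 1 to 5 had 9.34, 3.62, 3.15, 4.38 and 0.699. M mice 2 to 5 all exceeded the highest C mouse, M mouse 1 did not, and the AA mice ran from inside the range of C to inside that of M. Its M vs. C difference of 1.92 (SE 0.56) did not pass (limma, adjusted p = 0.116), nor did AA vs. M at -0.997 (SE 0.61, adjusted p = 0.284) and AA vs. C at 0.93 (adjusted p = 0.103). Timp1 turned on single mice: without M mouse 1, the M vs. C value of 2.51 and the AA vs. M value of -1.58 passed (adjusted p = 0.0346 and 0.0441), and without AA mouse 5 the AA vs. C value of 1.28 did (adjusted p = 0.0166). M mouse 1 held 8 reads of this short transcript.

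Plau (ENSMUSG00000021822, chr14:20836660-20843385, plus strand), the urokinase gene, is known to be made by kidney tubules and had the highest mean of the 10 genes in C. FPKM of Plau was 30.1, 34.0, 15.5, 23.8 and 34.1 in C mice 1 to 5, 43.7, 13.7, 32.0, 31.3 and 13.1 in M mice 1 to 5, and 42.4, 30.2, 49.6, 34.5 and 46.1 in AA mice 1 to 5. The groups overlapped, and none of the differences passed (M vs. C -0.13, AA vs. M 0.71, AA vs. C 0.57, limma, adjusted p = 0.873, 0.218 and 0.102). Plat (ENSMUSG00000031538, chr8:22757727-22782844, plus strand), an activator known mainly from endothelium, was at 13.7, 3.68, 22.8, 6.25 and 6.34 FPKM in C mice 1 to 5, at 7.39, 1.38, 3.45, 7.77 and 7.08 in M mice 1 to 5, and at 11.8, 8.78, 7.79, 8.97 and 11.4 in AA mice 1 to 5. All AA values of Plat were above all M values, with only 7.77 and 7.79 FPKM at the nearest pair. M mice 2 and 3 were below every C mouse, and the C mice ran from below to above the AA mice. The Plat difference of 0.89 (SE 0.38) in AA vs. M did not pass (limma, adjusted p = 0.126), and those of M vs. C (-0.76) and AA vs. C (0.13) had adjusted p = 0.466 and 0.808. The summed FPKM of 6 endothelial markers was 19.3 to 88.9 in C, 22.9 to 39.0 in M and 18.9 to 54.1 in AA.

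Read by comparison, a gene was called when its Benjamini-Hochberg adjusted p was at most 0.05 and its log2 fold change at least 1 in either direction. In M vs. C, 1 of the 10 genes was called higher (Mmp14) and 0 lower, where 0.269% of the 21153 genes tested were called higher and 1.11% lower. On the deposited FPKM scale, M lay above C without overlap for 3 of the 10 genes, against 1.05% of all genes. These were Mmp3, Mmp7 and Mmp14, and Mmp7 met the filter for testing through its M libraries. With every library scaled to the same FPKM sum (TPM), M and C overlapped for each of these 3. The mitochondrial share of reads was also higher in every M than in every C library, and its part in these differences was not tested. The median log2 fold change of the 10 genes was 0.86, compared with -0.12 over all genes tested, and 7 were above 0. The call on Mmp14 was marginal: leaving out C mouse 1, 2, 3 or 5 or M mouse 1, 2, 3 or 4 ended it (log2 fold change 1.63 to 1.93, adjusted p from 0.0631 to 0.105), and leaving out C mouse 4 or M mouse 5 did not (2.01 and 1.58, adjusted p = 0.0386 and 0.0372). Scaling every library to the same FPKM sum (TPM, mitochondrial genes included) gave 0.91 for Mmp14 (adjusted p = 0.257) and -1.96 for Timp3 (adjusted p = 0.0342), with the median of all genes shifted by -0.36.

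For AA vs. M, 0 of the 10 genes were called, against 12.8% of the 19798 genes tested (11.7% higher and 1.07% lower). At an unadjusted p under 0.05 limma gave 2 (Timp3 and Plat), where 32.1% of all genes passed, and voom on the recovered reads called 1 (Timp3, 1.21, adjusted p = 0.0273). On the deposited FPKM scale, Plat alone of the 10 genes had no overlap, in the higher direction, against 11.9% of all genes. The median log2 fold change was 0.61 (0.17 over all genes), with 7 above 0. Against M mice 1 to 3 alone, AA was higher in Timp3 (1.45, adjusted p = 0.0117) and Plat (1.25, adjusted p = 0.0275), while neither passed against M mice 4 and 5 alone (0.88 and 0.34, adjusted p = 0.240 and 0.488).

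In AA vs. C, 4 of the 10 genes were called higher (Mmp2, Mmp3, Mmp14 and Timp2) and 0 lower, where 10.2% of the 21898 genes tested were called higher and 9.61% lower. On the deposited FPKM scale, the groups did not overlap for Mmp2, Mmp14 and Timp2, 3 of 10 against 11.5% of all genes in that direction. AA and C did not overlap in the mitochondrial share or in the reads outside the mitochondrial genome either, and the part of these in the differences was not tested. The median log2 fold change was 0.89 (0.09 over all genes) and 9 were above 0. Dropping any 1 of the 10 mice kept all 4 calls, and 4 to 5 of the genes were then called higher. With TPM, Mmp3 alone was called (1.02, adjusted p = 0.0348), while Mmp2 (0.98), Mmp14 (0.97) and Timp2 (0.42) fell short and the median of all genes moved by -0.42. M vs. C and AA vs. C share the C libraries, and AA vs. M shares libraries with both, so the 3 comparisons are not independent.

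**Figure D2:**
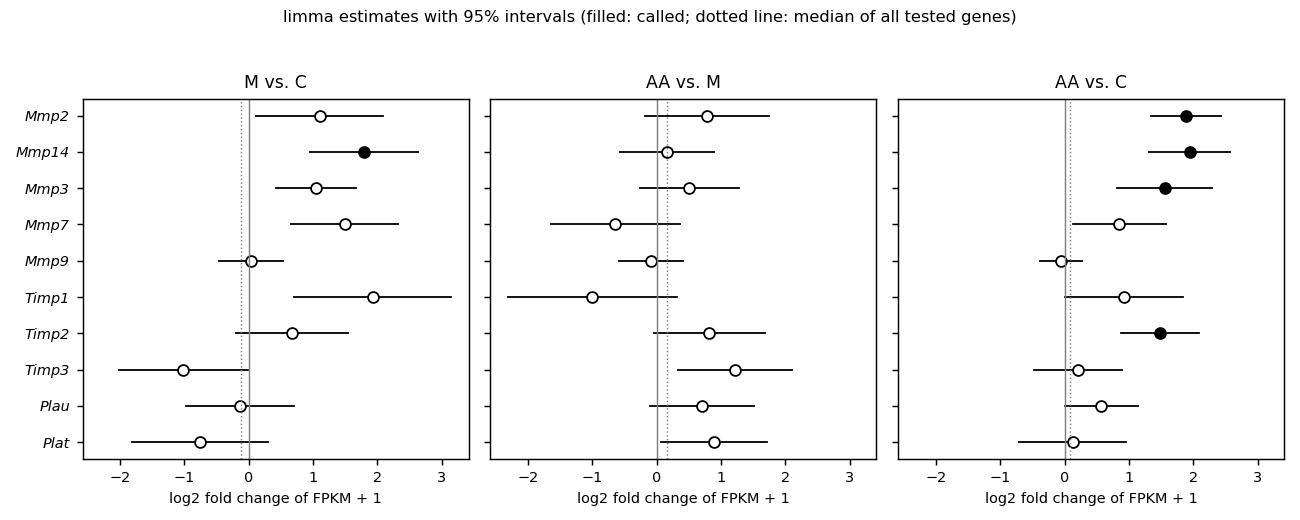
Log2 fold change of FPKM + 1 (x axis) of the 10 genes (y axis) in each comparison, with 95% intervals from limma, called genes as filled points, and the median of all tested genes as a dotted line. Mmp14 is the filled point of M vs. C, AA vs. M has none, and Mmp2, Mmp14, Mmp3 and Timp2 are filled in AA vs. C.

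Shares and ratios within a library do not depend on how libraries are scaled, and they are given here without a test. The sums behind them do depend on the scaling and are on the deposited FPKM scale. The 5 metalloproteinases summed to 10.3 ± 4.84 FPKM (SD, n = 5) in C, 38.3 ± 16.6 in M and 44.2 ± 5.93 in AA. The 3 TIMP genes summed to between 22.9 and 58.1 in C, 29.4 and 86.0 in M, and 63.8 and 110 in AA. The ratio of the metalloproteinase sum to the TIMP sum was 0.180 to 0.302 in C, 0.441 to 1.70 in M and 0.380 to 0.640 in AA, so that every M and AA library stood above every C library and M and AA overlapped. Mmp14 made up 56.4% of the metalloproteinase sum in C, 59.8% in M and 53.7% in AA, and Mmp2 34.6%, 25.5% and 33.7%.

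The make-up of the TIMP sum varied. Timp3 held 40.1% to 56.2% of it in C, 7.03% to 24.0% in M and 19.0% to 28.0% in AA, which leaves C apart from both adenine-fed groups. For Timp2 the share was 39.0% to 55.0% in C and 66.3% to 72.5% in AA, without overlap, and 48.4% to 80.9% in M. Timp1 took 1.22% to 42.0% in M, against at most 6.52% in C and 8.47% in AA. The ratio of Mmp2 to Timp2 was 0.135 to 0.184 in C, 0.132 to 0.439 in M and 0.188 to 0.308 in AA.

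**Figure D3:**
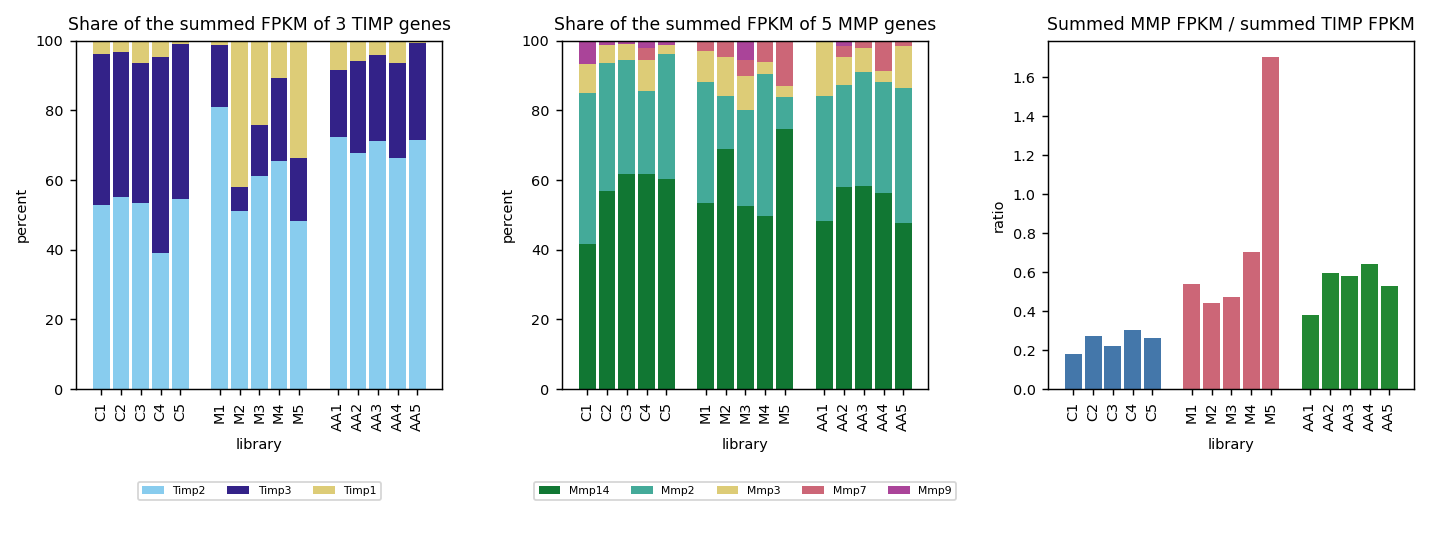
Share (percent) of each gene in the summed FPKM of the 3 TIMP genes (left) and the 5 metalloproteinase genes (middle), and the ratio of the 2 sums (right), for each of the 15 libraries (x axis, group and mouse number). Timp3 takes 40.1% or more of the TIMP sum in every C library and at most 28.0% in M and AA, and the ratio is highest in M mouse 5, at 1.70.

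By mean FPKM, which is per length, the order in C ran from Plau (27.5) through Timp2 (20.5), Timp3 (19.3), Plat (10.5), Mmp14 (5.90), Mmp2 (3.40) and Timp1 (1.496) to Mmp3 (0.644), with Mmp9 and Mmp7 last. Every pair of neighbours in this order overlapped from mouse to mouse. The order in AA was Timp2 (58.9), Plau (40.6), Mmp14 (23.6), Timp3 (20.7), Mmp2 (15.1), Plat (9.75), Timp1 (4.24) and Mmp3 (4.08), again before Mmp7 and Mmp9. Plau and Mmp14 were neighbours that did not overlap there (30.2 to 49.6 against 20.3 to 25.7 FPKM), and the other pairs did. In M, Timp2 (35.9), Plau (26.8) and Mmp14 (22.7) led, followed by Timp1 (10.5), Mmp2 (10.3), Timp3 (9.76) and Plat (5.41), and all of these overlapped with their neighbours.

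Likeness of pattern was measured across the 15 libraries as the root mean square difference of mean-centred log2(FPKM + 1), among genes above 0 in all 15, and is a description. Timp2 was closest to Cdh11, Pdgfra and Fstl1 (0.21, 0.25 and 0.26), and Mmp2 to Col1a2, Pltp and Sparc (0.27, 0.33 and 0.33). Timp3 was closest to Lama2, Cpm and Reck (0.31, 0.33 and 0.37), Plau to Smpdl3a, Psap and Tmem109 (0.28, 0.28 and 0.31), and Plat to Car5b, Tns3 and Perp (0.39, 0.43 and 0.44). The nearest genes to Mmp14 were Cygb, Gm17922 and Lbp (0.42, 0.45 and 0.50), to Mmp3 Fstl1, Dpysl3 and Gabra3 (0.37, 0.38 and 0.41), and to Timp1 Ccl2, Laptm5 and Ankrd1 (0.63, 0.66 and 0.70). On the same scale the deviation of these 8 genes from their own means ran from 0.57 for Plau to 1.19 for Timp1.

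Markers of other cells moved beside some of these genes. The summed FPKM of 8 macrophage markers was 17.3 to 101 in C, 137 to 401 in M and 95.1 to 145 in AA. On this scale M lay above C, as Mmp14, Mmp3 and Mmp7 did. In AA vs. M the log2 fold change was above 0 in 0 of the 8 markers and in 7 of the 10 genes. The medians were -0.73 and 0.61. There 1 of the 8 markers was called lower, against 1.07% of all genes, and 0 of the 10 genes were called. In M vs. C, 2 of the 8 were called higher (C1qb and Lyz2), against 0.269% of all genes. Csf1r was the 1 macrophage marker with a difference below 0 there (-1.01, limma, adjusted p = 0.205), and in AA vs. C it was called lower (-1.52, adjusted p = 0.00376) while C1qa, C1qb and Lyz2 were called higher. The summed FPKM of 8 fibroblast and mural cell markers was 49.8 to 132 in C, 48.4 to 167 in M and 116 to 190 in AA. In AA vs. C, 3 of the 8 (Pdgfra, Pdgfrb and Lum) were called higher, against 10.2% of all genes, as were Mmp2, Mmp3, Mmp14 and Timp2. The other 5 were not called there, at -0.50 for Acta2, -0.31 for Des, 0.03 for Rgs5, 0.07 for Tagln and 1.00 for Col14a1 (limma, adjusted p = 0.180, 0.483, 0.941, 0.773 and 0.0485, the last just under the fold limit). Acta2 averaged 28.9 FPKM in C, 24.9 in M and 19.2 in AA. For 6 markers of tubular injury the sums were 2.63 to 9.18, 11.6 to 27.2 and 20.3 to 36.7. Their part in the results was not tested.

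Among the other 18 metalloproteinases, 11 could be tested in each comparison. Mmp12, the elastase of macrophages, was the 1 gene called in M vs. C, higher by 1.36 (limma, adjusted p = 0.0404), at 0.0241 to 0.110 FPKM in C and 0.953 to 3.36 in M. Mmp19 was the 1 called in AA vs. C, higher by 1.06 (limma, adjusted p = 0.00594), and 0 of 11 were called in AA vs. M by limma (1 at an unadjusted p under 0.05), where 1.38%, 19.8% and 12.8% of all genes were called in M vs. C, AA vs. C and AA vs. M. Of 8 other inhibitors and activators, 0 of 6 tested were called in M vs. C and 0 of 8 in AA vs. C by limma (0 and 5 at an unadjusted p under 0.05), and 1 of 7 in AA vs. M. This was Reck, a membrane-anchored inhibitor of Mmp2, Mmp9 and Mmp14, higher by 1.25 (limma, adjusted p = 0.0330), at 0.160 to 3.82 FPKM in M and 3.51 to 6.04 in AA. Timp4 was listed at 0 in M mice 1 to 3, reached 0.301 and 0.386 FPKM in M mice 4 and 5, and lay at 0.506 to 1.82 in AA. Its AA vs. M difference of 0.97 had a limma adjusted p = 0.0122 but was under the fold limit.

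The substrate of Plau and Plat, plasminogen (Plg), is made mainly by the liver and was at most 0.301 FPKM in any kidney. The urokinase receptor gene Plaur, at 0.113 to 5.67 FPKM, was not called in any comparison. Of 12 other genes of the plasminogen system, limma called 0 higher and 1 lower of 9 tested in M vs. C, 2 higher and 1 lower of 9 in AA vs. M, and 1 higher and 2 lower of 10 in AA vs. C. Over all genes these shares were 0.269% higher and 1.11% lower, 11.7% and 1.07%, and 10.2% and 9.61%. Serpinf2, the gene of the plasmin inhibitor alpha-2-antiplasmin, fell by 2.80 on the log2 scale in M vs. C, fell by 1.51 in AA vs. C and was higher by 1.29 in AA vs. M (limma, adjusted p = 0.0205, 0.0168 and 0.0390). In AA vs. M, Lrp1, an endocytic receptor that clears protease and inhibitor complexes, was higher by 1.43 and S100a10, a plasminogen-binding protein, fell by 1.22 (limma, adjusted p = 0.0298 and 0.0279). Serpine2, a serpin that inhibits thrombin and the plasminogen activators, was higher by 1.67 in AA vs. C, and the plasminogen receptor Plgrkt fell by 1.42 (limma, adjusted p = 0.000302 and 0.00289).

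Other proteases gave calls in both directions. Of 14 further matrix-degrading proteases, 1 was called higher and 2 lower in M vs. C (1.38% of all genes were called in either direction): the lysosomal cathepsin Ctss by 3.30, and the epithelial proteases meprin beta (Mep1b) by -2.90 and hepsin (Hpn) by -2.49. In AA vs. C, 4 were higher, among them Ctss (2.52) and the collagen-degrading cathepsin Ctsk (1.83), and 3 lower (Mep1b -2.61, Hpn -2.47 and St14 -1.65), where 19.8% of all genes were called. Mep1a was the 1 of 13 called in AA vs. M, higher by 1.25. Of 26 ADAM and ADAMTS proteases, 0 of 24 tested were called in M vs. C by limma (3 at an unadjusted p under 0.05). Adam8 was the 1 of 23 called in AA vs. M, where it fell by 1.27, and AA vs. C had 1 of 24 higher (Adamts2, a procollagen processing enzyme, 1.22) and 2 lower (Adam15 -1.81 and Adamts10 -1.17), against 12.8% and 19.8% of all genes called in these comparisons.

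Of 20 genes of matrix and matricellular proteins, several of which these enzymes cut, Col3a1 was the 1 called in M vs. C, higher by 2.08 (limma, adjusted p = 0.0296). Against C, the AA group had 12 higher, led by Col1a1 (2.49), Col3a1 (2.47), Lox (2.21) and Dcn (2.00), and 1 lower (Lama5, -3.13), with a median log2 fold change of 1.33 compared with 0.09 over all genes. In AA vs. M, Col4a1 (1.72), Col4a2 (1.67), Col1a1 (1.45) and Loxl2 (1.34) were called higher and 0 lower. Of all genes, 0.269% were called higher in M vs. C, 10.2% in AA vs. C and 11.7% in AA vs. M, and 9.61% were called lower in AA vs. C.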

How the data were processed

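Kidney RNA from 15 mice was enriched for poly-A RNA and sequenced as paired reads. Per the labels and the study's methods, the authors trimmed the reads, mapped them to mm10 with HISAT2 2.0.5 and quantified genes with featureCounts 1.5.0-p3 (the submitters' processing notes also name fastp), and the values were deposited as FPKM per gene, with no filter on low values. The authors' own differential expression was run on counts, which were not analysed here. Whether counting used strand is not given in the sources used here.

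Gene symbols and joined exon lengths came from GENCODE M21 (GRCm38) by Ensembl identifier, with 37 of 54532 genes missing there. Read numbers per gene were worked out from the step size of each library's FPKM values times those lengths: 97.6% to 99.0% of low values fell within 0.05 of a whole number. Between 64.2% and 74.5% of those numbers from 1 to 20 were even, so that they may count both reads of a pair and a factor of 2 is unsettled. The FPKM sums ranged from 263859 to 1481920 with mitochondrial genes and from 71938 to 123898 without them, so the deposited scale is closer to one that leaves these genes out. The library size that the FPKM steps give did not equal the reads on genes (9018791 against 17418055 in AA mouse 2, 32117618 against 18165587 in C mouse 1), and how it was set is not given in the sources used here.

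Each pair of the C, M and AA groups was compared on the scale of log2(FPKM + 1) with limma 3.58.1 in R 4.3.3 (lmFit, then eBayes with its trend option), from 10 libraries and with no block, for genes above 0 in at least 5 of them. P-values were adjusted by Benjamini-Hochberg over all genes tested, and a gene was called where this p was 0.05 or less and the log2 fold change 1 or more in size. Fold changes of low genes are understated on this scale. Nothing says that mice within a group were independent beyond being separate animals. The fit was tested on simulated data with normal noise. In these, 200 genes with a mean log2(FPKM + 1) above 2 were changed by 2 on the log2 scale. Of them, 52% were called in M vs. C (21153 genes), 61% in AA vs. M (19798) and 74% in AA vs. C (21898). The simulation does not cover lower genes such as Mmp3, Mmp7 and Mmp9.

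The 10 genes and the lists of related genes and markers were chosen with earlier results of these data known. Of the related lists, the genes called in any comparison are named. Where more than 4 of a list were called in a comparison, only those with the largest changes are named. The 3 genes of the most similar pattern are named for each member above 0 in all 15 libraries. Plg, Plaur, Timp4 and Reck are always named. One further gene of that rule is not reported here. The alternatives were a pseudocount of 0.1, other filters, TPM with and without mitochondrial genes, centring, library weights, 1 fit of all 15 libraries, a replicate block, voom on recovered reads, each mouse left out, and M mice 1 to 3 or 4 and 5 alone. Python 3.11.15 with pandas 2.3.3 and matplotlib 3.10.9 was used for the remaining steps. Shared sequence was measured over 31-base words of the transcripts.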

Additional observations from a re-analysis of the deposited data

Results flagged for a closer look

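In each group of 5 libraries, the gap between the highest or lowest value and its neighbour was compared with the whole range, on the log2(FPKM + 1) scale. Of 30 groups (10 genes in C, M and AA), 3 had a gap above 0.71 of the range, where chance alone gives about 1 group in 20 if values are normally distributed. That rate does not hold for groups with values listed at 0, such as Mmp7 in C and Mmp9 in M. Mmp7 in C mouse 4, at 0.636 FPKM while the other 4 C mice were listed at 0, had a gap of 1, the whole range. Mmp9 in M mouse 3, at 1.46 FPKM, had a gap of 0.769, and Timp1 in M mouse 1, at 0.776 FPKM against 9.14 or more in the other M mice, had a gap of 0.723. M mouse 1 had 8 reads of Timp1 and M mouse 3 had 70 of Mmp9. What set these mice apart was not tested.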

How the results depend on the processing

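Under settings other than leaving out a mouse, 298 of 334 values for the 10 genes kept their direction and their side of the threshold, 14 gained a call, 6 lost one and 16 changed sign; with 1 mouse left out the numbers were 270 of 295, 7, 8 and 10. The calls of Mmp2, Mmp3, Mmp14 and Timp2 in AA vs. C were lost only by TPM, and there Mmp3 was kept. M mice 1 to 3 had 10068 to 12222 genes above 0 with 2077644 to 2770068 reads outside the mitochondrial genome, and AA mouse 2 had 18972 with 2225755. Low genes such as Mmp7 and Mmp9 rest on few reads.

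Changes of sign in M vs. C were Mmp9 at -0.29 (pseudocount 0.1), -0.20 (TPM), -0.89 (voom) and -0.11 (M mice 4 and 5), Timp2 at -0.31 (TPM), and Plau at 0.035 (voom) and 0.023 (M mice 1 to 3). In AA vs. M they were Mmp14 at -0.018 (TPM without mitochondrial genes), -0.15 (library weights) and -0.49 (M mice 4 and 5), and Mmp9 at 0.26 (voom) and 0.056 (M mice 4 and 5). In AA vs. C they were Timp3 at -0.85, Plat at -0.88 and Plau at -0.50 (TPM), and Mmp9 at 0.058 (centring). With single mice left out, Mmp9 ran from -0.21 to 0.12 in M vs. C, -0.20 to 0.15 in AA vs. M and -0.17 to 0.037 in AA vs. C, Plau from -0.34 to 0.075 in M vs. C, Plat from -0.13 to 0.45 and Timp3 from -0.011 to 0.42 (both AA vs. C).

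All genes called in M vs. C numbered 291, and 33 with genes above 0 in any library, 448 with a mean FPKM of at least 1, 1586 with TPM, 786 in 1 fit of 15 libraries, 188 with weights, 496 with voom, 0 with M mice 4 and 5 (2489 at an unadjusted p under 0.05), 3404 with M mice 1 to 3, and 4 to 954 with 1 mouse left out. AA vs. M had 2533, and 316 with TPM, 3971 with voom and 1656 with M mice 4 and 5. AA vs. C had 4346, and 7474 with pseudocount 0.1 and 7868 with voom. Of the 10 genes, those called higher in M vs. C were 2 with pseudocount 0.1, centring, 15 libraries, voom and M mice 1 to 3, 3 with weights, 0 with genes above 0 in any library, TPM (and 1 lower) and M mice 4 and 5, and 0 to 3 with 1 mouse left out. In AA vs. M 1 was higher with centring, 15 libraries and voom, 2 with M mice 1 to 3, and 0 to 1 higher and 0 to 1 lower with 1 mouse left out. In AA vs. C 1 was higher with TPM. The added calls were Mmp7 in M vs. C (3.78, 1.54, 1.49, 1.82 and 6.60 with pseudocount 0.1, centring, 15 libraries, weights and voom), Timp1 with weights (2.08), Mmp3 with M mice 1 to 3 (1.20) and Timp3, lower, with TPM (-1.96), Timp3 in AA vs. M (1.22 to 1.45 by limma, 1.21 by voom) and Plat there with M mice 1 to 3 (1.25), and Mmp7 in AA vs. C (4.77, voom). Without M mouse 5, Mmp3 (1.21) and Mmp7 (1.67) were called in M vs. C, and without AA mouse 1 Mmp7 (1.10) in AA vs. C. The share of calls that were higher was 19.6%, 91.6% and 51.6% in the 3 comparisons and 1.89%, 98.4% and 11.4% with TPM, 67.4% with weights and 27.8% with M mice 4 and 5 in AA vs. M, and 60.4% with centring in AA vs. C. The median of all genes shifted with TPM by -0.36 (M vs. C) and -0.42 (AA vs. C), by -0.40 and 0.35 in M vs. C and AA vs. M with pseudocount 0.1, and by -0.39, 0.50 and 0.25 with voom. Causes were not tested.

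Mice with the same number did not deviate together: the correlation of their deviations ran from -0.23 to 0.17 in M vs. C, -0.075 to 0.14 in AA vs. M and -0.11 to 0.13 in AA vs. C, and 0, 1 and 2 of 5 mice matched best with their own number. With the replicate block, 152 genes were called in M vs. C, 2217 in AA vs. M and 4345 in AA vs. C, and no call among the 10 genes changed.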
